A study of Mus musculus with 21 samples.

Results

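The 30 genes described here make cholesterol and fatty acids or control that synthesis, and were taken by symbol from the 21000 gene symbols of a count table of mouse hematopoietic stem cells (HSCs). They fall into 17 enzymes of sterol synthesis, 5 genes that make up the control of the SREBP transcription factors, 1 sterol transport protein and 7 enzymes of fatty acid synthesis. The rule rests on gene names, although the list was drawn up with earlier results of these data known. All 30 were listed in the table, and all 30 passed the filter on low counts in every comparison. Across 21 libraries the lowest count of a member was 29, for Tm7sf2.

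Cholesterol is built from acetyl-CoA through mevalonate, isoprenoid diphosphates, squalene and lanosterol, and fatty acids are built from the same acetyl-CoA by ACLY, ACSS2, acetyl-CoA carboxylase and fatty acid synthase. The membrane-bound factors encoded by Srebf2 and Srebf1 switch on the genes of these routes. SCAP escorts them to the Golgi for cleavage when sterols are low, and INSIG proteins hold SCAP in the endoplasmic reticulum when sterols are high. Dividing cells need both products for membranes.

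RNA sequencing was performed on wild-type HSCs of bone marrow, 3 libraries from independent experiments in each of 7 groups, with 3000–3500 sorted cells in each library. Mice of 10 weeks received PBS or 5-fluorouracil (5-FU), a cytotoxic drug that kills cycling blood cells and drives HSCs into cycle, at 150 mg/kg intraperitoneally on day 1. HSCs were isolated on day 6 after 1 administration of PBS or of 5-FU, on day 6 after the last of 3 administrations of PBS or of 5-FU, on day 21 after 1 or 3 administrations of 5-FU, and from untreated mice of 2 years (old). HSCs were sorted as CD150+CD48-Lin-Sca-1+c-Kit+ cells. HSCs taken 5 days after 5-FU were gated more widely by the authors, c-Kit-dim cells included, and stained without an antibody to Mac-1, so that a change in the cells that were sorted and a response to 5-FU cannot be told apart at day 6. In sorted populations, fewer cells of a kind and less RNA per cell cannot be told apart either. In the count table, 6 libraries, those of day 6 after a single administration, have an extra mark in their names; what it stands for is not given, and comparisons with the other 15 cross it.

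Total counts ranged from 22184885 to 38649033 per library. Levels are given as normalized CPM (counts scaled to a library total of 1000000, the total being adjusted by a TMM factor over all 21 libraries). Statements that groups did or did not overlap describe 3 libraries against 3. The share of all genes that separate in this way was not counted, so they are not evidence beyond the test. The summed level of 11 HSC markers was 2831 to 3045 CPM at day 6 after 1 administration of 5-FU against 3049 to 3357 in the PBS libraries, and 2930.3 to 3086 against 3155 to 3253 after 3. Of these 11 markers 3 were higher and 3 lower after 1 administration, with log2 fold changes from −0.86 to 1.01. After 3 administrations 1 was higher and 4 were lower, with values from −0.63 to 0.35. Kit, the receptor used in the gate, was lower in both (log2 fold change −0.86, adjusted p = 0.00111 after 1 and −0.44, adjusted p = 0.00701 after 3, edgeR). The 9 proliferation markers summed to 825 to 903 CPM against 597 to 628 after 1 administration and to 919 to 1043 against 515 to 578 after 3, with 4 and 8 of 9 higher and 0 lower. The 11 myeloid markers summed to 17.2 to 30.2 CPM against 48.2 to 94.3, and to 15.5 to 26.3 against 45.7 to 70.4, with 5 of 9 tested lower after 1 administration, 2 of 8 after 3 and 0 higher. The 6 megakaryocyte markers summed to 107 to 112 CPM against 165 to 202 after 1 administration and 151 to 160.1 against 177 to 185 after 3, with 4 and 2 of 6 lower. The 6 erythroid markers summed to 19.5 to 23.9 CPM against 29.9 to 47.2 after 1, without overlap, and to 27.8 to 42.1 against 31.9 to 51.1 after 3, with overlap. Of 4 erythroid markers tested, 2 were lower and 0 higher after 1 administration, and 1 was lower and 1 higher after 3. The 5 macrophage markers summed to 9.07 to 11.6 CPM against 7.42 to 10.4 after 1 and 9.32 to 15.5 against 5.37 to 8.03 after 3, the latter without overlap. Of 4 macrophage markers tested in each comparison, 1 was higher and 0 lower after 1 administration, and 0 passed after 3. The 5 endothelial and stromal markers summed to 6.11 to 9.497 CPM against 9.86 to 28.4 and 12.3 to 16.6 against 7.76 to 13.3, with 0 of 2 tested past the threshold after 1 administration and 0 of 4 after 3. The 6 markers of adipocytes, cells rich in the fatty acid enzymes, summed to at most 3.40 CPM in any library, with Cidec at 0 in all 21.

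The enzymes of both routes were expressed in unperturbed HSCs at widely different levels. Per kilobase of the longest annotated transcript, the mean level in HSCs of mice given PBS once was highest for Srebf1, at 79.3 ± 8.01 CPM per kb (SD, n = 3). It was followed by Acly, which makes cytosolic acetyl-CoA from citrate, at 74.9 ± 4.11 and by Dhcr7, a reductase of the last step to cholesterol, at 71.5 ± 0.785 CPM per kb. Acly overlapped both of the others, whereas every library of Srebf1 lay above every one of Dhcr7, and the next in order, Insig2, lay at 41.1 ± 6.90 CPM per kb. The lowest were Hsd17b7 at 1.66 ± 0.220, Scd1 at 1.15 ± 0.0777 and Tm7sf2 at 0.927 ± 0.208 CPM per kb. Between related genes, Srebf1 was 4.06 ± 0.451 (SD, n = 3) times Srebf2 per kilobase, and Insig2 was 3.53 ± 0.776 (SD, n = 3) times Insig1. Scd2 and Scd1 are stearoyl-CoA desaturases, and Scd2 was 18.2 ± 1.18 (SD, n = 3) times Scd1.

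Promoter sequences from RefSeq (GRCm38.p6) were found for 24 of the 30 members, in 32 windows from 250 bases before to 50 after a start site. None was given for Fdps, Fdft1, Sqle, Stard4, Scd1 and Scd2. The 250 bases before the start are shown for Hmgcs1, Insig1 and Lss, which were lower after 5-FU in both day 6 comparisons, and for Fasn, which did not pass the test in either. The sequences are written 5′ to 3′ on the strand of the gene, and capitals mark matches, on either strand, to the sterol regulatory element TCACNCCAC, to CCAAT, which NF-Y binds, or to the GC box GGGCGG, which Sp1 binds.
Hmgcs1 (chr13:119690101-119690350, plus strand): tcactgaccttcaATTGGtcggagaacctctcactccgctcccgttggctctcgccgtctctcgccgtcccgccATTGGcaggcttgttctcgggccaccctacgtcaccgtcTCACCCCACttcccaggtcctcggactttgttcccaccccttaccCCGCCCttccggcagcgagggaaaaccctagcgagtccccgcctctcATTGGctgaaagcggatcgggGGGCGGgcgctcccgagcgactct
Insig1 (chr5:28071162-28071411, plus strand): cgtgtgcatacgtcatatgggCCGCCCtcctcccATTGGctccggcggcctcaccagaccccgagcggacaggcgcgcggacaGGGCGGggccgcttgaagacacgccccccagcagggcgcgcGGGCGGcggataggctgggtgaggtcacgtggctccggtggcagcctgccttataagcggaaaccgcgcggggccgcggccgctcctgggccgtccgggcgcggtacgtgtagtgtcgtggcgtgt
Lss (chr10:76531355-76531604, plus strand): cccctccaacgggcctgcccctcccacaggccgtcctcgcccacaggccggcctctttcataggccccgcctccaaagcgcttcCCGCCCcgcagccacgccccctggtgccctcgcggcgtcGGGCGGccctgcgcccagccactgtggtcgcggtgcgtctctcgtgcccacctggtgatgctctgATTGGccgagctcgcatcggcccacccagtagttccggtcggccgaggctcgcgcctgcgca
Fasn (chr11:120824548-120824797, minus strand): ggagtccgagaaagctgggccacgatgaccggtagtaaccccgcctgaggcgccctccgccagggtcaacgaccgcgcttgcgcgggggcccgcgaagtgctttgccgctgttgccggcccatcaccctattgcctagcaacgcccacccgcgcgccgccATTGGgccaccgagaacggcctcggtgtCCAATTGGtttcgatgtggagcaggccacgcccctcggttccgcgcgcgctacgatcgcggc

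The letters TCACNCCAC were found in 1 of the 32 members' windows, that of Hmgcs1, as TCACCCCAC starting 137 bases before the start site. Of all 32851 promoter windows of this length, 1.24% held that motif. Only exact matches inside the windows were sought, so sites with other letters or farther away would be missed. CCAAT was found in 13 of 17 windows of sterol enzymes (76.5%), in 3 of 5 of fatty acid enzymes and in 37.4% of all windows. The GC box was found in 14 of 17 windows of sterol enzymes (82.4%), in 2 of 5 of fatty acid enzymes and in 35.7% of all windows. In Fasn, CCAAT was matched 3 times, on both strands, and 2 of these matches overlap. By response, CCAAT lay in 8 of 12 windows (66.7%) of genes lower after 1 administration of 5-FU. It lay in 13 of 20 windows (65%) of genes that did not pass the test. The GC box lay in 10 of 12 (83.3%) and 14 of 20 (70%). Counted by gene, CCAAT and the GC box were each found in 8 of 8 and 12 of 16, and TCACNCCAC in 1 of 8 and 0 of 16. Some genes have several windows, and no share of all genes was counted by gene.

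To ask how 5-FU altered these genes in HSCs, day 6 after 1 administration was compared with day 6 after PBS. Of the 30 members 14 fell and 0 rose past an adjusted p of 0.05 (edgeR quasi-likelihood test, 3 libraries against 3), while of all 12759 genes tested 10.6% were lower and 11.5% higher. The fold change was negative for 23 of 30. The median log2 fold change of the members was −0.42, against −0.000556 for all genes. Among the roles, 8 of 17 sterol enzymes, 2 of 5 SREBP regulators, the sterol transport gene Stard4 and 3 of 7 fatty acid enzymes were lower. The widened gate, the higher proliferation markers and the lower myeloid, megakaryocyte and erythroid sums went with this comparison, and their part in it was not tested.

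The 8 sterol enzymes that fell were Hmgcs1, Idi1, Fdps, Fdft1, Sqle, Lss, Hsd17b7 and Dhcr7. Lss, lanosterol synthase, which closes the ring of squalene epoxide, gave 26.1, 24.8 and 27.3 CPM in the PBS libraries and 14.1, 13.96 and 13.2 after 5-FU. The 3 values after 5-FU lay close together and well below every PBS value, and the log2 fold change was −0.93 ± 0.08 (SE), adjusted p = 0.00137. Hsd17b7, a ketone reductase of the demethylation complex, was at 7.41, 6.79 and 8.77 CPM with PBS and 4.29, 3.78 and 3.56 after 5-FU, again without overlap (−0.99 ± 0.19 (SE), adjusted p = 0.0128). Hmgcs1, the synthase that commits acetyl-CoA to HMG-CoA, was at 77.6, 121 and 115 CPM with PBS and 71.5, 69.8 and 58.02 after 5-FU. The groups did not overlap, but 1 PBS library lay close to the 5-FU values, and the log2 fold change was −0.66 ± 0.17 (SE), adjusted p = 0.0341.

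Idi1, the isomerase of isopentenyl diphosphate, was at 54.6, 58.6 and 52.99 CPM with PBS and 34.7, 40.1 and 36.6 after 5-FU (−0.59 ± 0.08 (SE), adjusted p = 0.00486). Fdps, which makes farnesyl diphosphate, was at 86.5, 99.5 and 97.2 and 60.9, 61.5 and 69.9 CPM (−0.57 ± 0.09 (SE), adjusted p = 0.00672). Fdft1, squalene synthase, was at 79.4, 69.6 and 67.1 and 46.3, 49.8 and 38.7 CPM (−0.69 ± 0.12 (SE), adjusted p = 0.00797). In each of these 3 genes of the middle of the route every 5-FU library lay below every PBS library. Sqle, squalene epoxidase, a rate-limiting step after squalene, was at 36.96, 44.6 and 39.7 and 31.4, 29.4 and 27.5 CPM (−0.47 ± 0.10 (SE), adjusted p = 0.0159). Dhcr7 was at 202, 203 and 199 and 153, 174 and 158 CPM (−0.33 ± 0.07 (SE), adjusted p = 0.0186), the smallest change among the sterol enzymes past the threshold.

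The 9 sterol enzymes that did not pass had log2 fold changes from −0.95 for Tm7sf2, a sterol reductase with few reads, to 0.15 for Acat2, the thiolase at the head of the route. Mvk, mevalonate kinase, was at 8.56, 14.3 and 17.7 CPM with PBS and 12.4, 8.63 and 8.04 after 5-FU (−0.49 ± 0.28 (SE), adjusted p = 0.252). Pmvk, phosphomevalonate kinase, was at 45.5, 42.7 and 40.4 and 47.1, 45.4 and 50.1 CPM (0.14 ± 0.08 (SE), adjusted p = 0.241), and Mvd, the decarboxylase that follows, at 6.41, 7.69 and 6.46 and 4.58, 2.15 and 4.02 CPM (−0.95 ± 0.30 (SE), adjusted p = 0.0609). Thus 0 of these 3 consecutive steps after mevalonate passed, although no Mvd library after 5-FU reached the lowest PBS value.

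Of the enzymes that act on lanosterol and later sterols, Cyp51, lanosterol demethylase, was at 31.1, 35.4 and 33.98 CPM with PBS and 24.5, 21.7 and 30.8 after 5-FU (−0.39 ± 0.14 (SE), adjusted p = 0.0759), Nsdhl at 12.2, 11.5 and 12.5 and 10.7, 8.78 and 8.53 (−0.38 ± 0.13 (SE), adjusted p = 0.073) and Tm7sf2 at 3.37, 3.06 and 2.14 and 1.51, 1.07 and 1.88 (−0.95 ± 0.40 (SE), adjusted p = 0.125). These were lower in all 3 libraries without passing the test. Sc5d, a desaturase, was at 19.98, 18.1 and 21.01 and 18.9, 15.7 and 15.7 CPM (−0.24 ± 0.11 (SE), adjusted p = 0.16) and Ebp, an isomerase, at 12.5, 11.6 and 14.6 and 14.2, 12.8 and 15.5 (0.13 ± 0.13 (SE), adjusted p = 0.496), both with overlap. Acat2 was at 42.6, 52.6 and 51.5 and 53.7, 56.8 and 53.4 CPM (0.15 ± 0.10 (SE), adjusted p = 0.293), higher in all 3 libraries. The summed level of the 17 sterol enzymes was 795 ± 37.3 (SD, n = 3) CPM with PBS and 604 ± 10.9 (SD, n = 3) after 5-FU, and the ranges (753 to 824 and 594 to 615) did not overlap.

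Some members cannot be measured free of their neighbours, since the strand and the treatment of reads with several alignments are not stated. Fdft1 (chr14:63145150-63179578) overlaps Ctsb of the opposite strand over 18.3% of its exonic bases, and Ctsb had a log2 fold change of −0.05 with an adjusted p of 0.678 in the same comparison. Acat2 shares 40.7% of its 75-base stretches, the read length, with other genes, chiefly Acat3 and Tcp1, and both of these were higher after 5-FU (0.30 and 0.50). Acaca shares 47.4%, with Gm5182, Idi1 29.1%, chiefly with Gm13502, and Fdps overlaps Gm43738 on the same strand over 26.7% of its exonic bases. These 3 loci were not analysed here. Hmgcs1 overlaps Gm48342 of the opposite strand over 12.1% of its exonic bases and shares 12.2% of its 75-base stretches with it. Scap overlaps a gene of the opposite strand over 13.2%, Acss2 such genes over 9.12%, and Tm7sf2 overlaps Vps51 on the same strand over 12.1%. The values of all these members are therefore uncertain. Lss (chr10:76531588-76557138) shares 1.82%, Insig1 (chr5:28071363-28078662) 0.877%, and Sqle, Hsd17b7, Dhcr7, Stard4 and Fasn 0%.

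**Figure D1:**
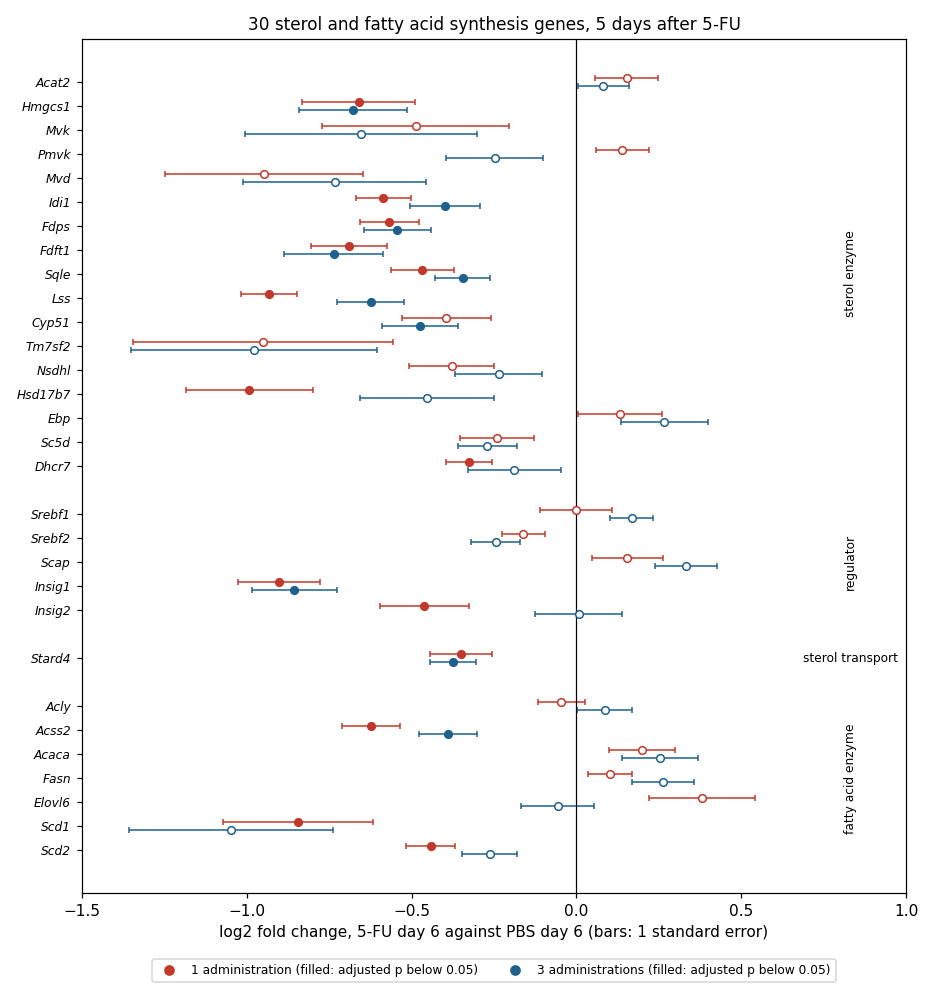
Log2 fold change of the 30 members on day 6 after 5-FU against PBS (x axis), after 1 administration (red) and after 3 (blue), grouped by role. Points are estimates over 3 libraries against 3, bars are 1 standard error, and filled points have an adjusted p below 0.05. Filled points are found only on the left of 0, 14 in red and 10 in blue.

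In the fatty acid branch the genes of the synthesis of palmitate itself did not pass the test. Fasn, fatty acid synthase (chr11:120805846-120824547), was at 88.5, 86.00 and 92.8 CPM with PBS and 95.3, 93.8 and 99.3 after 5-FU, every 5-FU value above every PBS value (log2 fold change 0.10 ± 0.07 (SE), adjusted p = 0.316). Acaca, acetyl-CoA carboxylase, was at 21.7, 18.7 and 18.96 and 21.6, 22.4 and 24.6 CPM (0.20 ± 0.10 (SE), adjusted p = 0.189), with overlap. Acly was at 333, 313 and 349 and 309.5, 342 and 318 CPM (−0.05 ± 0.07 (SE), adjusted p = 0.677), with overlap. Elovl6, which elongates palmitate, was at 20.7, 15.1 and 14.1 and 19.96, 24.1 and 21.4 CPM (0.38 ± 0.16 (SE), adjusted p = 0.13).

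The 3 genes of the branch that fell were Acss2, which makes acetyl-CoA from acetate, and both desaturases. Acss2 was at 32.3, 32.1 and 36.5 CPM with PBS and 20.8, 22.6 and 22.4 after 5-FU (−0.62 ± 0.09 (SE), adjusted p = 0.00443). Scd2 was at 114, 114 and 113 and 85.6, 77.7 and 89.9 CPM (−0.44 ± 0.07 (SE), adjusted p = 0.00812), and the low Scd1 was at 5.97, 5.52 and 5.22 and 3.40, 2.56 and 3.41 CPM (−0.84 ± 0.23 (SE), adjusted p = 0.0371). None of the 3 overlapped between the groups. Summed over the 7 enzymes, the level was 584 to 629.8 CPM with PBS and 556 to 585 after 5-FU, with overlap. The median log2 fold change was −0.49 over the sterol enzymes and −0.05 over the fatty acid enzymes; this difference between the branches was not tested.

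Among the regulators, the transcription factors themselves did not pass the test. Srebf1 was at 380.4, 317 and 325 CPM with PBS and 327, 390.2 and 312 after 5-FU, with a log2 fold change of 0.00 in size at 2 decimals (adjusted p = 0.998). Srebf2 was at 98.1, 98.1 and 102 and 91.5, 85.7 and 90.9 CPM (−0.16 ± 0.06 (SE), adjusted p = 0.115), lower in all 3 libraries. Scap was at 158, 158 and 155 and 163, 206 and 159 CPM (0.15 ± 0.11 (SE), adjusted p = 0.335). Insig1, which is itself a target of the factors it restrains, was at 30.9, 35.4 and 28.9 CPM with PBS and 19.8, 15.4 and 16.1 after 5-FU (−0.90 ± 0.12 (SE), adjusted p = 0.0043). No 5-FU library reached the lowest PBS value. Insig2 was at 132, 96.3 and 104 and 71.9, 88.1 and 82.7 CPM (−0.46 ± 0.13 (SE), adjusted p = 0.048). Stard4, which carries cholesterol between membranes, was at 100.3, 99.9 and 108 and 91.3, 74.7 and 77.1 CPM (−0.35 ± 0.09 (SE), adjusted p = 0.0359).

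**Figure D2:**
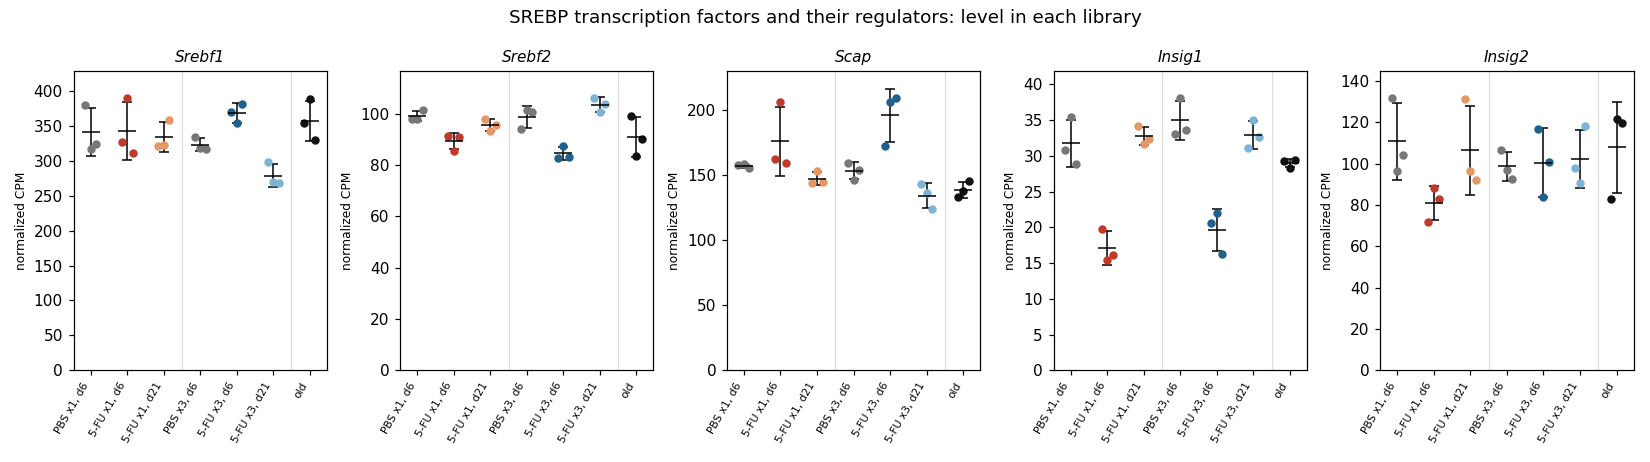
Normalized CPM (y axis) of the SREBP factors, Scap and the Insig genes in each library of the 7 groups (x axis); points are libraries, lines are the mean and bars the SD. Insig1 lay at 19.8, 15.4 and 16.1 CPM at day 6 after 1 administration of 5-FU against 30.9, 35.4 and 28.9 with PBS, whereas Srebf1 overlapped between these groups.

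The same comparison was made after 3 administrations, with other libraries throughout. Of the 30 members 10 fell and 0 rose, while of all 12729 genes tested 8.30% were lower and 9.84% higher. The fold change was negative for 22 of 30, with a median of −0.31 against −0.012 for all genes. By role, 7 of 17 sterol enzymes, 1 of 5 regulators, Stard4 and 1 of 7 fatty acid enzymes were lower. Of the genes lower after 1 administration 64.3% (9 of 14) were also lower after 3, and these were 9 of the 10 lower after 3. They were Hmgcs1, Idi1, Fdps, Fdft1, Sqle, Lss, Insig1, Stard4 and Acss2.

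Insig1 was at 33.1, 38.1 and 33.7 CPM after 3 administrations of PBS and 20.6, 21.9 and 16.3 after 3 of 5-FU (−0.86 ± 0.13 (SE), adjusted p = 0.00701), and Lss was at 24.8, 24.9 and 23.04 and 16.98, 14.2 and 16.7 CPM (−0.62 ± 0.10 (SE), adjusted p = 0.009). Neither overlapped between the groups. Fdft1 was at 79.9, 90.3 and 59.7 and 47.3, 48.1 and 44.7 CPM (−0.74 ± 0.15 (SE), adjusted p = 0.0182), with a wide spread of the PBS libraries. Hmgcs1 was at 122, 115 and 95.2 and 79.8, 76.3 and 54.7 CPM (−0.68 ± 0.16 (SE), adjusted p = 0.0305). Fdps was at 114, 107 and 95.1 and 78.6, 68.02 and 74.1 CPM (−0.54 ± 0.10 (SE), adjusted p = 0.0135). In all 3 every 5-FU library was below every PBS library.

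Idi1 was at 53.4, 60.7 and 53.8 and 47.95, 42.5 and 38.8 CPM (−0.40 ± 0.11 (SE), adjusted p = 0.041), and Sqle at 37.2, 40.7 and 39.1 and 29.5, 33.2 and 30.8 CPM (−0.34 ± 0.08 (SE), adjusted p = 0.0307). Stard4 was at 115, 114 and 113 and 92.7, 88.4 and 87.1 CPM (−0.37 ± 0.07 (SE), adjusted p = 0.0142), and Acss2 at 31.6, 33.6 and 34.8 and 26.6, 27.2 and 23.7 CPM (−0.39 ± 0.09 (SE), adjusted p = 0.0259). The 4 were lower by less than Insig1 and Lss, again without overlap. Cyp51 passed after 3 administrations and not after 1, at 35.4, 39.1 and 30.9 CPM with PBS and 25.7, 28.1 and 23.3 after 5-FU (−0.47 ± 0.12 (SE), adjusted p = 0.0319).

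The lower myeloid and megakaryocyte sums and the higher proliferation and macrophage sums went with this comparison too, and their part in it was not tested. The macrophage sums were low, and 0 of 4 macrophage markers tested passed.

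The remaining 20 had adjusted p-values of 0.0511 or more and log2 fold changes from −1.05 (Scd1) to 0.33 (Scap). Scap, at 159.7, 147 and 154 CPM with PBS and 172, 206 and 209 after 5-FU, was higher in all 3 libraries and had the adjusted p nearest to the threshold. Fasn was at 79.2, 75.8 and 80.1 and 87.2, 93.05 and 106 CPM (0.26 ± 0.09 (SE), adjusted p = 0.1), also higher in all 3 libraries. The median was −0.45 over the sterol enzymes and −0.06 over the fatty acid enzymes. The sterol enzymes summed to 736 to 909 CPM with PBS and 610.0 to 685 after 5-FU, without overlap, and the fatty acid enzymes to 571 to 610.1 and 590.2 to 632, with overlap.

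**Figure D3:**
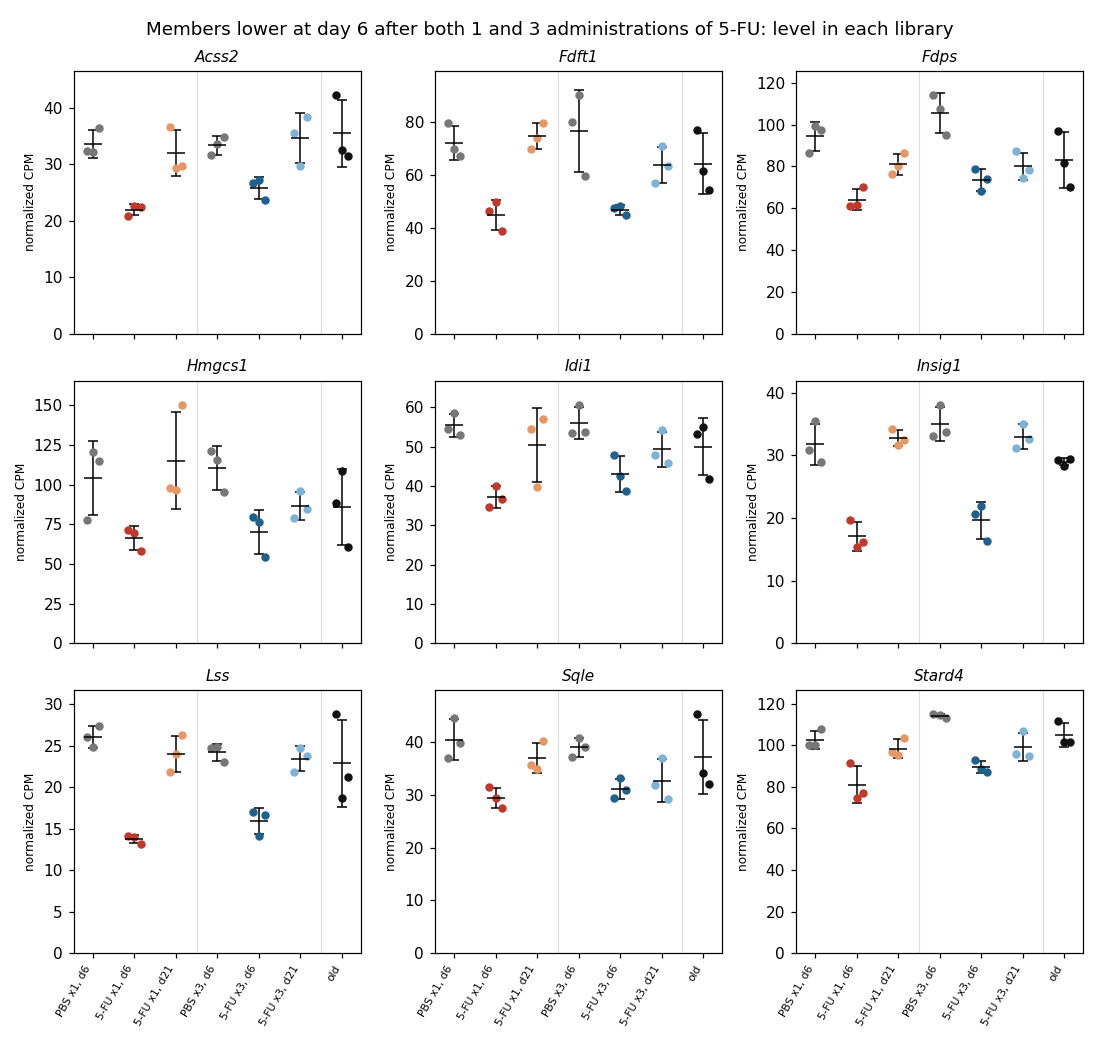
Normalized CPM (y axis) of the 9 members lower at day 6 after both 1 and 3 administrations of 5-FU, in each library of the 7 groups (x axis); points are libraries, lines the mean and bars the SD. In the panels of Lss and Insig1 the 6 libraries of day 6 after 5-FU lie below the other 15.

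Whether the response differed between the first and the third administration was tested over 12 libraries. Of the 30 members 0 passed, also by DESeq2, while of all 13227 genes 0.340% were higher and 0.310% lower. At an unadjusted p below 0.05 (edgeR) there were 3 of 30 members, against 14.8% of all genes. The interaction was between −0.42 (Elovl6) and 0.55 (Hsd17b7) on the log2 scale. For Lss it was 0.32 ± 0.12 (SE), adjusted p = 0.246, and for Insig2 0.48 ± 0.20 (SE), adjusted p = 0.296. The calls made after 1 administration and not after 3 (Hsd17b7, Dhcr7, Insig2, Scd1 and Scd2) were thus not shown to differ between them.

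**Figure D4:**
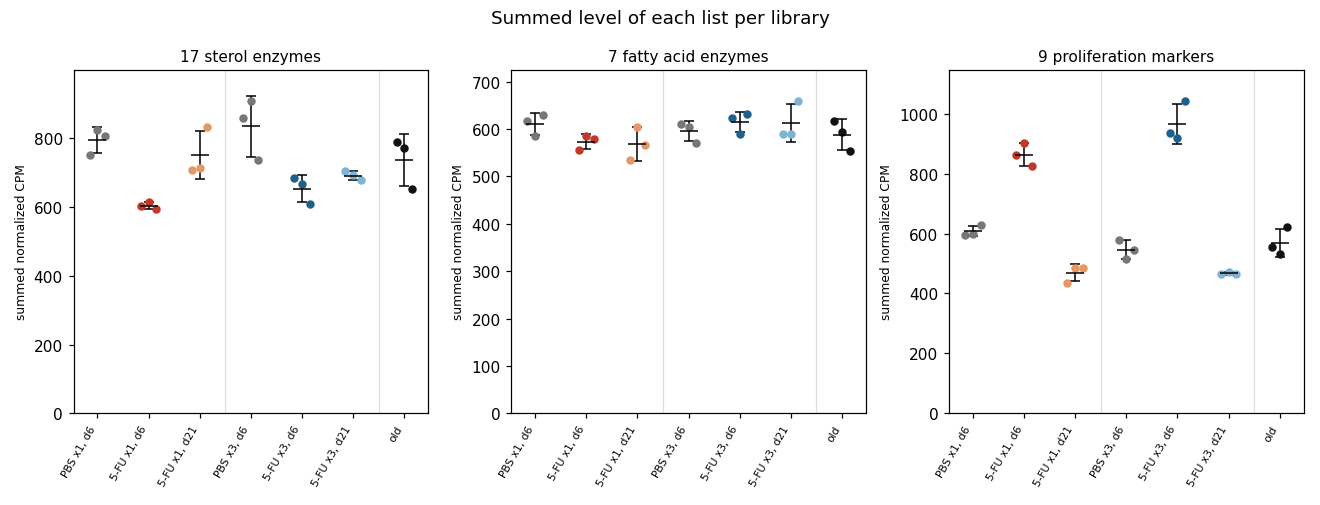
Summed normalized CPM per library (y axis) of the 17 sterol enzymes, the 7 fatty acid enzymes and 9 proliferation markers in the 7 groups (x axis); points are libraries, lines the mean and bars the SD. At day 6 after 5-FU the sterol sum lies below that of PBS (594 to 615 against 753 to 824 CPM after 1 administration) while the proliferation sum lies above it.

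Day 21 was compared with PBS at day 6 to ask whether the levels returned. After 1 administration 0 of 30 members passed in either direction, while 0.0712% of all genes were higher and 0.150% lower. At an unadjusted p below 0.05 (edgeR) 4 of 30 were lower and 0 higher, against 13.3% of all genes in either direction. DESeq2 called 1 member. After 3 administrations 0 of 30 passed, while 0.0396% of all genes were higher and 0.00792% lower. At an unadjusted p below 0.05 (edgeR) 7 of 30 were lower and 0 higher, against 13.7% of all genes in either direction. DESeq2 called 2 members. Its share of all genes is not given here for either comparison. No PBS libraries of day 21 were analysed here, so time and treatment differ together in these comparisons. The 14 genes lower at day 6 after 1 administration had log2 fold changes from −0.48 to 0.14 at day 21 (median −0.09). The 10 genes lower at day 6 after 3 had values from −0.41 to 0.05 (median −0.20).

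After 3 administrations 17 of 17 sterol enzymes had a negative fold change at day 21, with a median of −0.22, against 0.01 over the fatty acid enzymes and 0.00079 over all genes. After 1 administration 14 of 17 were negative (median −0.11). Old HSCs against the same PBS libraries as after 3 gave 14 of 17 negative (median −0.14). In PBS given 3 times against once 12 of 17 were positive (median 0.07). Fdps after 3 administrations, at 114, 107 and 95.1 CPM with PBS and 87.3, 74.6 and 78.3 at day 21 (−0.41 ± 0.10 (SE), adjusted p = 0.183), was lower in all 3 libraries. The sterol enzymes summed to 678 to 704 CPM at day 21 after 3 administrations, below the 736 to 909 of the PBS libraries, and to 709 to 832 after 1, overlapping the 753 to 824 of PBS. None of the enzymes passed the test singly, so the shared sign is a description of these libraries.

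Between day 6 and day 21 after 1 administration 8 members rose and 2 fell, with 12.3% of all genes higher and 13.7% lower. Those that rose were Hsd17b7, Insig1, Lss, Hmgcs1, Fdft1, Acss2, Fdps and Sqle, and all are among the 14 lower at day 6. The day 6 libraries are shared with that comparison. Insig1 reached 34.2, 31.7 and 32.4 CPM at day 21 (0.95 ± 0.11 (SE), adjusted p = 0.00229), Lss 21.9, 23.97 and 26.3 (0.82 ± 0.10 (SE), adjusted p = 0.0026) and Fdft1 69.8, 74.1 and 79.7 (0.74 ± 0.12 (SE), adjusted p = 0.0055). Each of these 3 lay above all of its day 6 values. Hsd17b7 reached 5.51, 8.35 and 10.2 CPM (1.06 ± 0.27 (SE), adjusted p = 0.0271), Hmgcs1 98.05, 97.00 and 151 (0.80 ± 0.19 (SE), adjusted p = 0.021) and Acss2 36.6, 29.4 and 29.8 (0.55 ± 0.11 (SE), adjusted p = 0.0133). Fdps (0.34 ± 0.09 (SE), adjusted p = 0.0328) and Sqle (0.34 ± 0.10 (SE), adjusted p = 0.0405) rose less. The 2 that fell were Acaca, to 15.5, 17.2 and 15.9 CPM (−0.49 ± 0.10 (SE), adjusted p = 0.0123), and Pmvk to 28.4, 36.8 and 37.6 CPM (−0.46 ± 0.12 (SE), adjusted p = 0.0323).

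After 3 administrations 6 members rose and 2 fell from day 6 to day 21, with 8.68% of all genes higher and 10.8% lower. Insig1 reached 31.1, 35.05 and 32.7 CPM (0.75 ± 0.13 (SE), adjusted p = 0.00849), Lss 21.9, 24.8 and 23.7 (0.56 ± 0.11 (SE), adjusted p = 0.0135) and Fdft1 56.95, 70.8 and 63.2 (0.45 ± 0.10 (SE), adjusted p = 0.0226). Acss2 (0.43 ± 0.12 (SE), adjusted p = 0.0423) and Scd2 (0.38 ± 0.09 (SE), adjusted p = 0.0235) rose in the fatty acid branch. Srebf2, which chiefly drives the sterol genes, rose from 82.8, 87.5 and 83.3 to 106, 101 and 104 CPM (0.30 ± 0.08 (SE), adjusted p = 0.0329), while Srebf1, which chiefly drives the fatty acid genes, fell from 370.0, 354 and 382 to 298, 270.3 and 268 CPM (−0.40 ± 0.08 (SE), adjusted p = 0.0134). Scap fell from 172, 206 and 209 to 143, 136 and 124 CPM (−0.54 ± 0.11 (SE), adjusted p = 0.0135). The call of Srebf2 was lost in 6 of 6 fits that left out 1 library and with the replicate number as a block (largest adjusted p = 0.105), while that of Srebf1 held in each. After 1 administration the same comparison gave 0.11 ± 0.07 (SE), adjusted p = 0.317 for Srebf2 and −0.03 ± 0.10 (SE), adjusted p = 0.867 for Srebf1, so that neither passed.

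Per kilobase, after 3 administrations, Srebf1 was 5.16 ± 0.332 (SD, n = 3) times Srebf2 at day 6 and 3.17 ± 0.135 (SD, n = 3) times at day 21. The proliferation markers summed to 919 to 1043 CPM at day 6 and 464 to 471 at day 21, and the myeloid markers to 15.5 to 26.3 and 55.7 to 86.2 CPM, and their part was not tested. After 1 administration these sums were 825 to 903 and 436 to 485 CPM, and 17.2 to 30.2 and 44.5 to 127 CPM. Of the 10 calls made between day 6 and day 21 after 1 administration, 4 held under every alternative fit, namely Insig1, Lss, Fdft1 and Acaca. Of the 8 after 3 administrations 4 held, namely Insig1, Lss, Srebf1 and Scap.

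**Figure D5:**
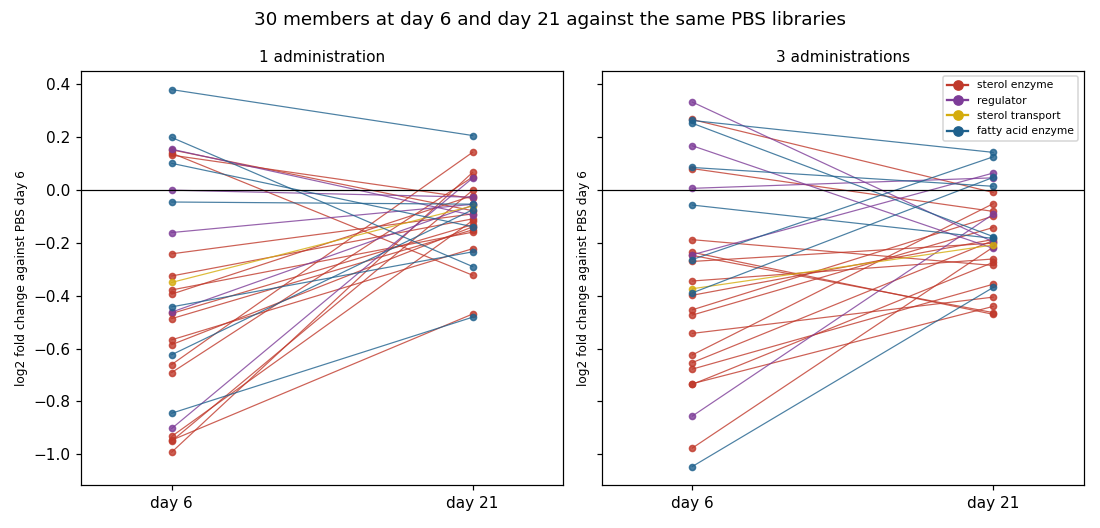
Log2 fold change of the 30 members against the PBS libraries of day 6 (y axis) at day 6 and day 21 (x axis) after 1 (left) and 3 (right) administrations of 5-FU, coloured by role, each line a gene. At day 6 after 1 administration 23 of 30 lie below 0, and at day 21 no member passed the test.

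Other genes of these pathways were counted from lists, to be read against the shares of all genes, 10.6% lower and 11.5% higher after 1 administration and 8.30% lower and 9.84% higher after 3. Of 3 further enzymes of sterol synthesis, 3 were lower at day 6 after 1 administration and 1 after 3. Msmo1, a sterol methyl oxidase, was lower in both (−0.66 ± 0.12 (SE), adjusted p = 0.01, and −0.76 ± 0.13 (SE), adjusted p = 0.0102). Of 2 proteases that cleave SREBPs, 0 passed in either comparison. Of 6 genes of isoprenoid side branches, 2 were higher after 1 administration, and 1 was higher and 1 lower after 3. Pdss1, which makes the side chain of ubiquinone, was higher in both (0.70 ± 0.14 (SE), adjusted p = 0.0158, and 0.81 ± 0.13 (SE), adjusted p = 0.00867).

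Of 11 genes of sterol uptake, storage and efflux, 4 were lower after 1 administration, and 3 were lower and 1 higher after 3. Abcg1, an exporter of cholesterol that the sterol-sensing liver X receptors switch on, was at 52.3, 53.7 and 48.6 CPM with PBS and 42.5, 39.3 and 38.04 after 1 administration of 5-FU (−0.38 ± 0.08 (SE), adjusted p = 0.0164). Mylip, another target of these receptors, was lower in both (−0.66 ± 0.14 (SE), adjusted p = 0.0174, and −0.63 ± 0.13 (SE), adjusted p = 0.0172). The exporter Abca1 was lower after 1 (−1.16 ± 0.21 (SE), adjusted p = 0.00965). After 3 administrations Abcg1 was lower (−0.41 ± 0.09 (SE), adjusted p = 0.0261), and Abca1 had a log2 fold change of −0.53 ± 0.18 (SE), adjusted p = 0.0842, with overlap. In each comparison 7 of the 11 did not pass. Abcg1, Mylip and Abca1 were picked from the 11, and others not named changed by more. The log2 fold changes of the list ran from −1.61 to 0.66 after 1 administration, 10 negative and 1 positive. After 3 they ran from −0.98 to 1.06, 9 negative and 2 positive. A part of the liver X receptors was not tested. Of 16 other genes of fatty acid synthesis and activation 14 were tested. Of these 1 was higher and 1 lower after 1 administration, and 1 was lower after 3, which is no larger a share than that of all genes. Those past the threshold were Acsl3 and Elovl5. Acsl3, an acyl-CoA synthetase of lipid droplets, was at 162, 166 and 165 CPM with PBS and 78.8, 89.5 and 68.2 after 1 administration (−1.07 ± 0.10 (SE), adjusted p = 0.00161), and lower after 3 also (−0.67 ± 0.13 (SE), adjusted p = 0.0172). Elovl5 was higher after 1 (0.40 ± 0.08 (SE), adjusted p = 0.0176).

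Old HSCs were compared with HSCs of mice given PBS 3 times. Of the 30 members 0 passed, also by DESeq2, while 0.553% of all genes were higher and 0.444% lower. At an unadjusted p below 0.05 (edgeR) there were 2 of 30 members, against 11.2% of all genes. Log2 fold changes ranged from −0.51 (Tm7sf2) to 0.47 (Scd1). Scd1 was at 11.8, 9.31 and 7.02 CPM in old HSCs and 9.71, 5.43 and 5.05 with PBS, with overlap, and Insig1, at 29.3, 28.4 and 29.4 and 33.1, 38.1 and 33.7 CPM (−0.28 ± 0.10 (SE), adjusted p = 0.311), was lower in all 3 libraries. Counts of 4 Y-linked genes were 0 in the 3 old libraries and at least 198 in each of the other 18, so that age and sex cannot be told apart, and 2 of the members, Nsdhl and Ebp, are X-linked.

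HSCs given PBS 3 times differed from those given it once in 0 of 30 members, and in 0.00781% of all genes in each direction. At an unadjusted p below 0.05 (edgeR) there were 3 of 30 members, against 12.8% of all genes. DESeq2 called 1 member, and its share of all genes is not given here. The log2 fold changes lay between −0.38 (Hsd17b7) and 0.60 (Tm7sf2). Stard4, at 115, 114 and 113 CPM after 3 administrations and 100.3, 99.9 and 108 after 1 (0.16 ± 0.07 (SE), adjusted p = 0.395), was higher in all 3 libraries.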

How the data were processed

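Per the labels and the study's methods, the authors sorted 3000–3500 HSCs for each library, amplified cDNA with a SMART-Seq v4 kit, prepared Nextera XT libraries, read single ends of 75 bases, aligned them to mm10 with TopHat2 2.0.13 and quantified expression with Cuffdiff of Cufflinks 2.2.1. What the authors deposited are raw read counts, 1 whole number per gene symbol and library, with no normalization. The counting program, its use of strand and its treatment of reads with several alignments are not given in the sources used here.

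Counts were analysed in R 4.3.3. For a comparison, filterByExpr of edgeR 4.0.16 removed genes with low counts, and the rest were scaled by TMM and tested with its quasi-likelihood F test over the libraries of the groups compared, with Benjamini-Hochberg adjustment over all genes kept and a threshold of 0.05. The standard error is the size of the log2 fold change divided by the square root of F. The level of each member is given for day 6 after 1 administration and its PBS group. In the other comparisons members past the threshold are named, and others as near to it or as contrasts, the last chosen after their values were seen. The members and lists were chosen with earlier results of these data known. Lengths and overlaps come from GENCODE vM21 (GRCm38), promoters from RefSeq.

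On simulated counts with the filter of the comparison of 5-FU and PBS after 1 administration (12759 genes), edgeR recovered 65 of 100 genes changed by 1 on the log2 scale and 17 of 100 changed by 0.5. After 3 administrations (12729 genes) it recovered 69 and 12 of 100. No other genes were changed in these simulations, whereas in the data 10.6% of genes were lower and 11.5% higher after 1 administration. The recovery in the data may therefore differ from these values. Members that did not pass may still have changed by such sizes. Alternatives were other size factors, no size factor, DESeq2 1.42.0, 2 other count filters, the replicate number as a block, a fit over all 21 libraries, the other PBS group and leaving out each library.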

Additional observations from a re-analysis of the deposited data

How the results depend on the processing

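No called fold change of a member reversed under any alternative run. Of 546 values of called members under these alternatives 433 kept their side of the threshold and 113 lost it. After 1 administration, 8 of the 14 calls at day 6 held under every alternative, namely Lss, Insig1, Fdft1, Hsd17b7, Acss2, Idi1, Fdps and Scd2, and after 3 administrations 3 of 10 did, namely Lss, Insig1 and Fdps. From day 6 to day 21, 4 of 10 calls after 1 administration and 4 of 8 after 3 held under every alternative. Those lost under at least 1 were Hsd17b7, Hmgcs1, Acss2, Fdps, Sqle and Pmvk after 1, and Fdft1, Acss2, Scd2 and Srebf2 after 3. DESeq2 called more members than edgeR at day 6 after 3 administrations (16, of which 3 higher and 13 lower, against 10), from day 6 to day 21 after 1 (16 against 10), at day 21 against PBS after 1 (1) and after 3 (2), and with PBS given 3 times against once (1). The share of all genes that DESeq2 called in each of these comparisons is not given here. On the simulated counts of day 6 after 1 and 3 administrations DESeq2 made 36 and 54 false calls, against 1 and 8 by edgeR. It recovered 76 of 100 genes changed by 1 in both, against 65 and 69. The extra calls at day 6 after 3 administrations may therefore be false, although fewer genes were changed in these simulations than were called in the data. For the other comparisons no counts were simulated for DESeq2, so that their extra calls cannot be judged in this way. Leaving out single libraries gave 9 to 11 calls against 14 at day 6 after 1 administration (9 without 5-FU replicate 2 or 3), and 4 to 7 against 10 after 3 (4 without 5-FU replicate 3, 5 without PBS replicate 1 or 2). From day 6 to day 21 it gave 5 to 9 against 10 after 1 administration (5 without day 6 replicate 1 or 2), and 4 to 6 against 8 after 3 (4 without day 6 replicate 2 or 3, and 5 without day 6 replicate 1 or day 21 replicate 2 or 3). Fewer libraries entered these fits, and the share of all genes called in each is not given here. A loss of calls over all genes and one of these members cannot be told apart from these counts. The cause was not tested. Scaling by library size without a factor moved the median of all genes to −0.11 on the log2 scale at day 6 after 3 administrations, where 14 members were then called, and to 0.12 from day 6 to day 21 after 3. The share of all genes called with this scaling is not given here.

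Libraries with the same number deviated together with correlations between −0.050 and 0.058, so that the numbers do not pair the libraries. With the replicate number as a replicate block, 10 members were called at day 6 after 1 administration and 6 after 3. The shares of all genes called with this block are not given here.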
